A study of Mus musculus with 8 samples.

Results

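The genes described here encode 8 receptor chains for haematopoietic growth factors: Flt3, Csf1r, Csf2ra, Csf2rb, Csf2rb2, Csf3r, Kit and Il7r. They were taken by symbol from a table of read counts for 24369 gene symbols, in which all 8 were found. The first 7 were listed because such receptors separate dendritic cells from monocytes and macrophages, and Il7r was added because its level was already known to differ between the sorted subsets of these samples: it was chosen by its measured counts in cDC1 against cDC2. Levels of these 8 genes between the subsets are therefore given as a description with no test. The 8 are tested in the contrasts of the EGFP fractions, which were not the stated ground for choosing them. These contrasts use the same libraries, and earlier results of these data were known, so they are not shown to be independent of the choice. Other genes, from lists also chosen with earlier results known, are tested between the subsets.

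The cells came from MC38-EGFP tumours in wild-type (WT) mice. The MC38 line derives from a colon tumour of a mouse and was made to express EGFP, a green fluorescent protein, which lets dendritic cells that hold tumour-derived protein be sorted apart from those that do not. Conventional dendritic cells were sorted as cDC1, which excel at showing antigen from dying cells to CD8 T cells, or as cDC2, known for priming CD4 T cells, and each was divided by its EGFP signal. The 4 groups, EGFP-positive cDC1, EGFP-negative cDC1, EGFP-positive cDC2 and EGFP-negative cDC2, had 2 libraries each, named replicates 1 and 2. All groups share the WT genotype and the tumour model. The labels give no age, number of animals or drug for these libraries and name the cell type as colon cancer. They do not say that the replicates came from separate animals, so the p-values speak for the spread among these libraries alone, and that spread may be technical.

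Blood cell growth factors act through a small number of receptor designs. Flt3, Kit and Csf1r are tyrosine kinase receptors that bind their ligands outside the cell and phosphorylate themselves inside it. The receptors for granulocyte-macrophage colony-stimulating factor (GM-CSF), granulocyte colony-stimulating factor (G-CSF) and interleukin 7 have no kinase of their own and signal through Janus kinases and STAT proteins. Flt3 drives the development and upkeep of conventional dendritic cells, Csf1r that of monocytes and macrophages, GM-CSF supports many myeloid cells of inflamed tissue, and G-CSF acts mainly on neutrophils. Kit is best known from blood stem cells and mast cells, and Il7r from lymphocytes.

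Library totals ranged from 17869441 to 22195681 counts, of which the ribosomal RNA precursor Rn45s took 19.4% to 35.6%. The 2 EGFP-positive cDC1 libraries resembled each other least: of 7949 genes with at least 100 counts in either of them, 1856 (23.3%) had 0 counts in the other, against 2.51% to 7.49% in the other groups. Markers matched the label cDC1: Xcr1, a chemokine receptor of this subset, stood at 103 to 331 CPM, the counts scaled to a common library size, in the 4 cDC1 libraries and at 0.0890 to 5.31 CPM in the 4 cDC2 libraries. Zbtb46, a transcription factor of the conventional dendritic cell lineage, stood at 10.1 to 37.1 CPM in cDC1 and at 0 to 1.04 CPM in cDC2. The summed level of 10 macrophage markers was 88.3 to 2046 CPM in cDC1 and 8635 to 18304 CPM in cDC2, with all 10 detected in each cDC2 library. The summed level of 8 cDC2 markers was 32.9 to 396 CPM in cDC1 and 895 to 947 CPM in cDC2. Itgam, Sirpa and Klf4 were higher in every cDC2 library than in every cDC1 library. In cDC2 they were at 253 to 398, 171 to 338 and 85.6 to 237 CPM. The other markers of that list, Cd209a, Clec10a, Mgl2, Irf4 and Clec4a4, overlapped between the subsets. Mgl2 was highest in EGFP-negative cDC1 replicate 2, at 220 CPM, and Irf4 reached at most 13.3 CPM. As macrophage markers were high in the cDC2 libraries, the name cDC2 stands here only for the cells of that sort gate. All levels are CPM scaled by the trimmed mean of M values (TMM).

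Flt3 and Csf1r, the receptors that mark the dendritic cell and the macrophage lineage, had opposite patterns between the subsets in most libraries. Within a subset their order was mixed. EGFP-negative cDC2 replicate 1 had the most of both genes in cDC2. EGFP-positive cDC1 replicate 1 had the least of both in cDC1, though its Flt3 level was close to that of its replicate. In the remaining cDC1 libraries Flt3 fell from 208 through 171 to 67.9 CPM as Csf1r rose from 24.6 through 69.4 to 401 CPM. EGFP-negative cDC2 replicate 2 had 0 CPM of Flt3 beside 507 CPM of Csf1r. Flt3 was at 67.2 and 67.9 CPM in EGFP-positive cDC1 and at 208 and 171 CPM in EGFP-negative cDC1, against 5.15 and 0.0495 CPM in EGFP-positive cDC2 and 10.8 and 0 CPM in EGFP-negative cDC2. Every cDC1 library lay above every cDC2 library, and within cDC1 both EGFP-positive libraries lay below both EGFP-negative ones. The mean was 32.2-fold higher in cDC1 (128 ± 72.0 CPM) than in cDC2 (3.995 ± 5.13 CPM, SD, n = 4 libraries each). The ratio was 73.9 without EGFP-negative cDC2 replicate 1, which held most of the Flt3 reads of the cDC2 gate. It was 24.1 without EGFP-negative cDC2 replicate 2, the lowest with 1 library left out. In bulk RNA of this kind, fewer cells of a type and less RNA per cell cannot be told apart. The order of the group means ran from EGFP-negative cDC1 through EGFP-positive cDC1 to EGFP-negative and EGFP-positive cDC2, and the libraries of the last 2 groups overlapped.

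Csf1r was at 1.27 and 401 CPM in EGFP-positive cDC1 and at 24.6 and 69.4 CPM in EGFP-negative cDC1, against 344 and 205 CPM in EGFP-positive cDC2 and 604 and 507 CPM in EGFP-negative cDC2. The cDC2 libraries were all high, and 3 of the 4 cDC1 libraries were low. The exception was EGFP-positive cDC1 replicate 2, which lay within the range of the EGFP-positive and EGFP-negative cDC2 libraries, 316-fold above its own replicate. The mean was 124 ± 187 CPM in cDC1 and 415 ± 176 CPM in cDC2 (SD, n = 4 each), 3.34-fold higher in cDC2. It was 13.1-fold higher in cDC2 without EGFP-positive cDC1 replicate 2 and 2.51-fold higher without replicate 1 of that group. An exon of Hmgxb3 overlaps exons of Csf1r on the opposite strand in GENCODE M21, and since the use of strand is not given in the sources used here, reads in that overlap cannot be assigned with certainty.

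**Figure D1:**
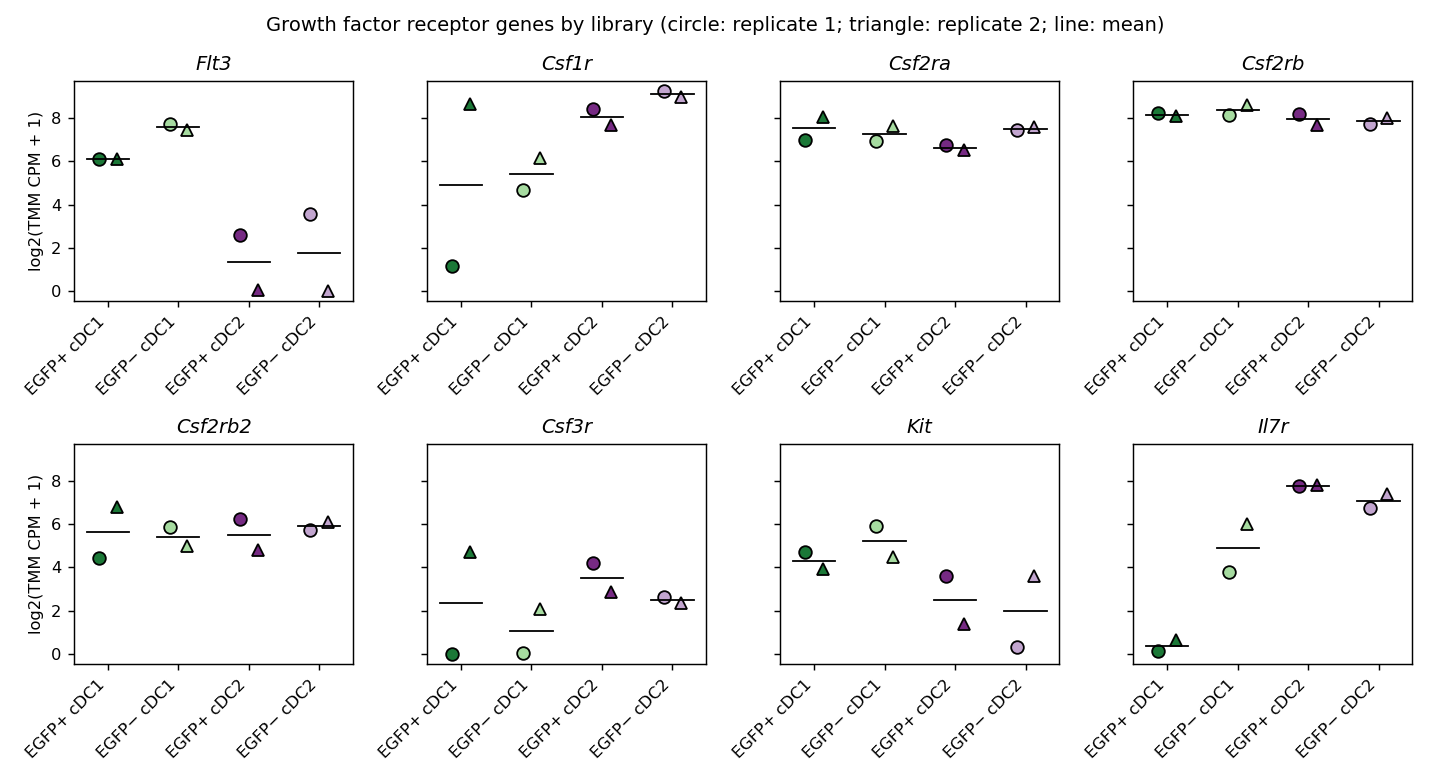
Level of each receptor gene in each library as log2(TMM CPM + 1), with the 4 groups along the x axis, circles for replicate 1, triangles for replicate 2 and a line at the mean of the plotted values. Flt3 is high in all 4 cDC1 libraries, Il7r is high in all 4 cDC2 libraries and near 0 in EGFP-positive cDC1, and Csf1r in EGFP-positive cDC1 splits between 1.27 and 401 CPM.

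Set against exon length, which allows levels of different genes to be compared, Flt3 made up 98.0% and 13.7% of the summed Flt3 and Csf1r level in EGFP-positive cDC1 replicates 1 and 2. It made up 88.8% and 69.7% in EGFP-negative cDC1, against 1.38% and 0.0226% in EGFP-positive cDC2 and 1.64% and 0% in EGFP-negative cDC2. The share was above 69% in 3 cDC1 libraries and below 2% in every cDC2 library. EGFP-positive cDC1 replicate 2 stood between them, with 10.99 CPM per kb of Flt3 and 69.5 CPM per kb of Csf1r. Its Flt3 level was close to that of its replicate, at 10.9 CPM per kb.

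**Figure D2:**
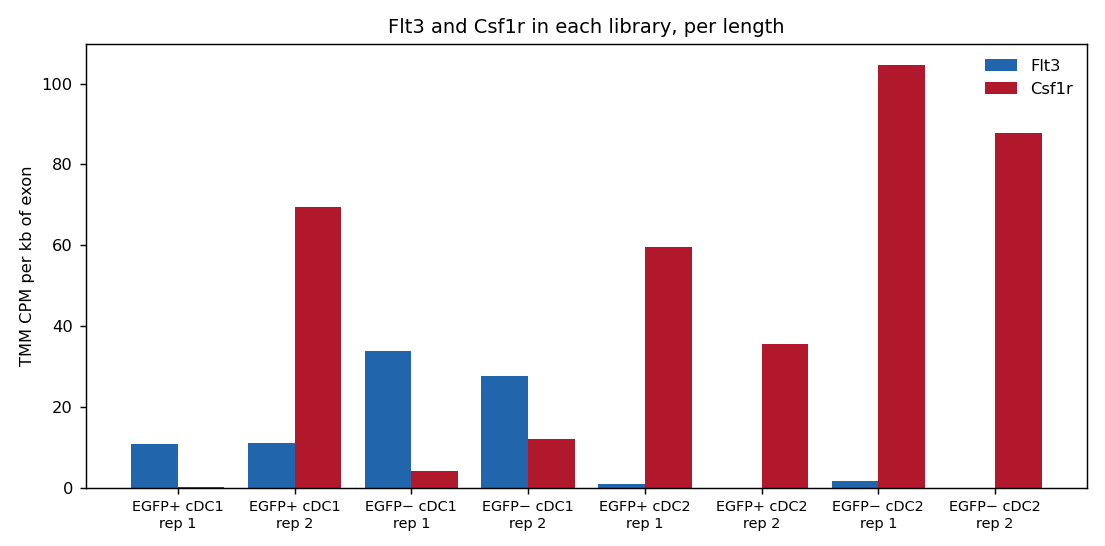
TMM CPM per kb of merged exon (y axis) of Flt3 and Csf1r in each of the 8 libraries (x axis); each bar is 1 library. Flt3 exceeds Csf1r in 3 cDC1 libraries, and Csf1r exceeds Flt3 in EGFP-positive cDC1 replicate 2 (69.5 against 10.99 CPM per kb) and in all 4 cDC2 libraries.

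The sum of the macrophage markers was higher in every cDC2 library than in all 4 cDC1 libraries, and Csf1r than in 3 of the 4. EGFP-positive cDC1 replicate 2 was the highest of the cDC1 libraries in both. The 10 macrophage markers summed to 88.3 and 2046 CPM in EGFP-positive cDC1 and to 203 and 143 CPM in EGFP-negative cDC1, against 18304 and 8635 CPM in EGFP-positive cDC2 and 16344 and 12350 CPM in EGFP-negative cDC2. In EGFP-positive cDC1 replicate 2, Apoe, a lipid carrier made by macrophages, gave 1543 CPM of that sum, while the complement gene C1qa was at 4.21 CPM, the chemokine gene Pf4 at 0.421 CPM and the uptake receptor gene Mertk at 0 counts. The 8 monocyte markers summed to 303 and 724 CPM in EGFP-positive cDC1 and to 826 and 331 CPM in EGFP-negative cDC1, against 314 to 460 CPM in the 4 cDC2 libraries, and did not follow Csf1r. Ccr7, a migration receptor of mature dendritic cells, was at 5498 CPM in EGFP-positive cDC1 replicate 2, against 70.8 to 368 CPM in the other 3 cDC1 libraries. The part of macrophage RNA in the Csf1r level was not tested.

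**Figure D3:**
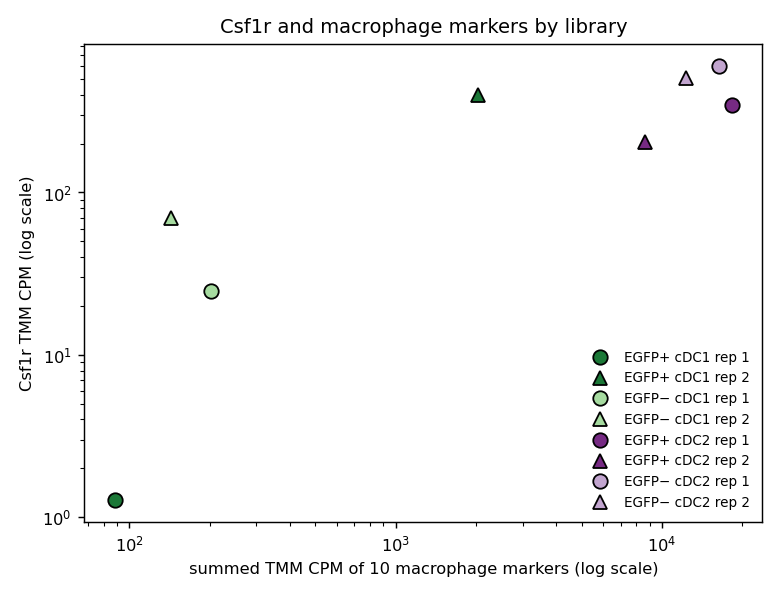
Csf1r level in TMM CPM (y axis, log scale) against the summed TMM CPM of 10 macrophage markers (x axis, log scale), 1 point a library. EGFP-positive cDC1 replicate 2 has 401 CPM of Csf1r at a marker sum of 2046 CPM, between the other cDC1 libraries (88.3 to 203 CPM) and the cDC2 libraries (8635 to 18304 CPM).

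Kit, the receptor for stem cell factor, had the same subset order as Flt3. It was at 25.4 and 14.0 CPM in EGFP-positive cDC1 and at 59.8 and 21.3 CPM in EGFP-negative cDC1, against 11.1 and 1.58 CPM in EGFP-positive cDC2 and 0.269 and 11.2 CPM in EGFP-negative cDC2. Its 4 cDC1 libraries lay above its 4 cDC2 libraries, the lowest at 14.0 and the highest of cDC2 at 11.2 CPM. The mean was 30.1 ± 20.3 CPM in cDC1 and 6.04 ± 5.93 CPM in cDC2 (SD, n = 4 each). Replicates within each subset's EGFP-negative group differed by more than the fractions did: EGFP-positive and EGFP-negative cDC1 overlapped, as did both cDC2 fractions. Of 7 mast cell markers, 6, including the protease gene Cpa3 and the IgE receptor gene Fcer1a, had 0 counts in all 8 libraries, and the seventh, Hdc, was at 0 to 16.3 CPM.

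Il7r, the interleukin 7 receptor chain that also pairs with Crlf2 to bind thymic stromal lymphopoietin, had the opposite subset pattern, which is the pattern it was added for. It was at 0.0875 and 0.561 CPM in EGFP-positive cDC1 and at 12.9 and 62.7 CPM in EGFP-negative cDC1, against 216 and 219 CPM in EGFP-positive cDC2 and 107 and 165 CPM in EGFP-negative cDC2. No libraries of neighbouring groups overlapped in the order EGFP-positive cDC2, EGFP-negative cDC2, EGFP-negative cDC1 and EGFP-positive cDC1. The values in EGFP-positive cDC1 rest on 2 and 8 reads, and 3 reads correspond to 0.131 and 0.211 CPM there. The mean was 19.1 ± 29.7 CPM in cDC1 and 176 ± 52.5 CPM in cDC2 (SD, n = 4 each), 9.26-fold higher in cDC2. It was 39.3-fold higher in cDC2 without EGFP-negative cDC1 replicate 2 and 6.97-fold higher without EGFP-positive cDC1 replicate 1.

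Flt3, Kit and Il7r were the 3 of 8 receptor genes whose cDC1 and cDC2 libraries did not overlap. The same held for 12.5% of the 11394 genes tested. Since subset levels took part in choosing these genes, nothing is read from that count. T cell markers were near 0 beside Il7r: Cd3e and Cd3g had 0 counts in every library, Cd3d reached 1.61 CPM and Thy1 0.0932 CPM. Of the 9 lymphoid markers measured, Il1rl1, the interleukin 33 receptor gene, was high in 2 libraries, at 302 CPM in EGFP-positive cDC1 replicate 1 and at 74.7 CPM in EGFP-positive cDC2 replicate 2. Both libraries belong to EGFP-positive groups, in which Il7r was at 0.0875 and 219 CPM.

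The start regions of 2 genes higher in every cDC1 library, Flt3 and Kit, of Il7r, higher in every cDC2 library, and of Csf2ra, whose subsets overlapped, are printed because these genes carry, or lack, the subset patterns. Each is 250 bases before to 50 after the start, on the gene's strand, from RefSeq for GRCm38.p6. Windows of 6 of the 8 genes were used here. Capitals mark GAGGAA or its reverse complement TTCCTC, a core of sites bound by PU.1, the factor encoded by Spi1.

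Flt3 promoter, chr5:147400440-147400739, minus strand: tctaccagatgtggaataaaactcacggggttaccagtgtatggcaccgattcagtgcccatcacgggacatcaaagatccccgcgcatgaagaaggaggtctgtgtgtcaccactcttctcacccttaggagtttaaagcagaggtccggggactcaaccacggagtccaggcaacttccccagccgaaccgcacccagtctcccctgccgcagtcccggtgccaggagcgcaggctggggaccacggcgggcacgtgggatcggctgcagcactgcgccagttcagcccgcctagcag
Kit promoter, chr5:75574737-75575036, plus strand: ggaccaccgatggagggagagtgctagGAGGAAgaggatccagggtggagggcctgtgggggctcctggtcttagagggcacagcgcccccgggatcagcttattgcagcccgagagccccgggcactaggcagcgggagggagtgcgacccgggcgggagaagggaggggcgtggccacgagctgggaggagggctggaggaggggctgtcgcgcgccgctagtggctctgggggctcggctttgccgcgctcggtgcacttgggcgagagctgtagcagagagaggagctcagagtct
Il7r promoter, chr15:9529827-9530126, minus strand: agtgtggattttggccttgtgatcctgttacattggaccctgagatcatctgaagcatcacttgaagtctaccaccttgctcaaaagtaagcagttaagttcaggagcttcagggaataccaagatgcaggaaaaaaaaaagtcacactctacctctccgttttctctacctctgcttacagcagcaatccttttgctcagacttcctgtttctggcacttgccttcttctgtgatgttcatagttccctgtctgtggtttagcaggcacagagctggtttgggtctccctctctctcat
Csf2ra promoter, chr19:61228369-61228668, minus strand: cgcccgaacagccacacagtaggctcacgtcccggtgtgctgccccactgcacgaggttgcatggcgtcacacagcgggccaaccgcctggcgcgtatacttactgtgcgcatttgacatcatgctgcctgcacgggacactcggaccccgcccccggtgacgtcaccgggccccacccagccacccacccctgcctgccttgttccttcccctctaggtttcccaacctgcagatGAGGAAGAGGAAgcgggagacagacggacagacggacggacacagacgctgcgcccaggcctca

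The letters were found once in the Kit window and in 2 adjacent copies in the Csf2ra window, and not in those of Flt3 and Il7r. Of all 32851 such windows, 28.3% held them on either strand, so a match is a description of the sequence only. Spi1 itself, a master factor of myeloid cells, was at 226 and 364 CPM in EGFP-positive cDC1 and at 352 and 280 CPM in EGFP-negative cDC1, against 228 and 67.8 CPM in EGFP-positive cDC2 and 371 and 297 CPM in EGFP-negative cDC2. Its cDC1 and cDC2 libraries overlapped.

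Csf2ra and Csf2rb, genes of the GM-CSF receptor, were present at 90.6 CPM or more in every library. Csf2ra encodes the chain that binds GM-CSF alone, and Csf2rb the beta chain that GM-CSF, interleukin 3 and interleukin 5 share. Csf2ra was at 126 and 264 CPM in EGFP-positive cDC1 and at 122 and 194 CPM in EGFP-negative cDC1, against 106 and 90.6 CPM in EGFP-positive cDC2 and 172 and 191 CPM in EGFP-negative cDC2. Csf2rb was at 295 and 272 CPM in EGFP-positive cDC1 and at 282 and 389 CPM in EGFP-negative cDC1, against 290.0 and 206 CPM in EGFP-positive cDC2 and 210 and 252 CPM in EGFP-negative cDC2. All 8 libraries of each gene lay within a range of 90.6 to 264 CPM for Csf2ra and 206 to 389 CPM for Csf2rb, and the subsets overlapped for both. The ratio of means, cDC1 over cDC2, was 1.26 for Csf2ra and 1.29 for Csf2rb.

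Csf2rb2 encodes a mouse beta chain for interleukin 3 that lies beside Csf2rb on chromosome 15. It was at 20.4 and 111 CPM in EGFP-positive cDC1 and at 57.2 and 30.4 CPM in EGFP-negative cDC1, against 73.0 and 27.1 CPM in EGFP-positive cDC2 and 51.4 and 66.7 CPM in EGFP-negative cDC2. All groups overlapped, with means of 54.6 CPM in cDC1 and in cDC2. The ratio of these means, cDC1 over cDC2, was 1.001. It was 0.658 without EGFP-positive cDC1 replicate 2 and 1.21 without replicate 1 of that group. Its share of the reads given to either beta chain gene was 6.46% (exact 95% binomial interval 5.90 to 7.05) and 28.9% (27.7 to 30.2) in EGFP-positive cDC1 and 16.8% (15.99 to 17.7) and 7.25% (6.72 to 7.81) in EGFP-negative cDC1. In cDC2 it was 20.1% (19.2 to 21.1) and 11.6% (10.7 to 12.6) in the EGFP-positive fraction and 19.7% (18.6 to 20.8) and 20.9% (20.004 to 21.9) in the EGFP-negative fraction. In all 4 groups each replicate's share lay outside the interval of the other. These intervals cover counting error only, because reads copied by PCR and lacking molecular barcodes do not each stand for a molecule.

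The pair is so alike that reads could be split between them. Over 2626 aligned coding bases 95.4% were identical, and 892 stretches of 50 bases occur in transcripts of both, 12.3% of those of Csf2rb and 18.4% of those of Csf2rb2. Both values are uncertain for that reason. The longest coding stretch with no difference had 242 bases and is shown because a read inside it fits either gene. It lies in 1 exon of each, at chr15:78348577-78348818 on the plus strand in Csf2rb and at chr15:78284630-78284871 on the minus strand in Csf2rb2 (GRCm38, GENCODE M21). The aligned coding window of 100 bases with most differences follows, with the 17 differing bases in capitals, where reads can be assigned.

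Stretch shared by Csf2rb and Csf2rb2: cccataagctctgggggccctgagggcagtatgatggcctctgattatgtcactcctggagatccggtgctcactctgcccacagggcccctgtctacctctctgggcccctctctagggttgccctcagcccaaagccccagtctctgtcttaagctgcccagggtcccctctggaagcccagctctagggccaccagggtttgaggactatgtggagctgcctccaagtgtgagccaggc
Csf2rb window: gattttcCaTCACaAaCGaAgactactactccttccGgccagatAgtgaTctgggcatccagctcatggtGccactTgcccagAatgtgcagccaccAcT
Csf2rb2 window: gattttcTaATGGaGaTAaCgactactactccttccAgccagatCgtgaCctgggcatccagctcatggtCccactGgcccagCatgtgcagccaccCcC

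Csf3r, the G-CSF receptor gene, was low and uneven between replicates. It was at 0 and 25.5 CPM in EGFP-positive cDC1 and at 0.0467 and 3.17 CPM in EGFP-negative cDC1, against 17.5 and 6.19 CPM in EGFP-positive cDC2 and 5.23 and 4.096 CPM in EGFP-negative cDC2. It was above 4 CPM in every cDC2 library and in 1 cDC1 library, EGFP-positive replicate 2, which also had the most Csf1r of the cDC1 libraries. Neutrophil markers were low: of 9 measured, 5 had 0 counts in all 8 libraries, including S100a9 and Mpo, and the sum was 0 to 8.35 CPM in cDC1 and 4.46 to 24.0 CPM in cDC2, mostly S100a8 and Mmp8. In EGFP-positive cDC1 replicate 2 that sum of 8.35 CPM came from Mmp8 alone.

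Per kb of exon, Csf2ra, Csf2rb and Csf2rb2 together made up 86.4% and 63.1% of the summed level of the 8 genes in EGFP-positive cDC1 and 66.3% and 69.3% in EGFP-negative cDC1. They made up 45.004% and 43.8% in EGFP-positive cDC2 and 43.2% and 47.8% in EGFP-negative cDC2. Csf2ra had the highest level per kb in all 4 cDC1 libraries, Csf1r in 3 of the 4 cDC2 libraries and Il7r in EGFP-positive cDC2 replicate 2, where Il7r gave 31.3% of the sum and Csf1r 23.7%. Flt3 gave 10.6% and 4.54% in EGFP-positive cDC1 and 23.9% and 15.02% in EGFP-negative cDC1, against less than 1% in every cDC2 library. These shares are taken within a library and do not depend on the scaling between libraries.

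**Figure D4:**
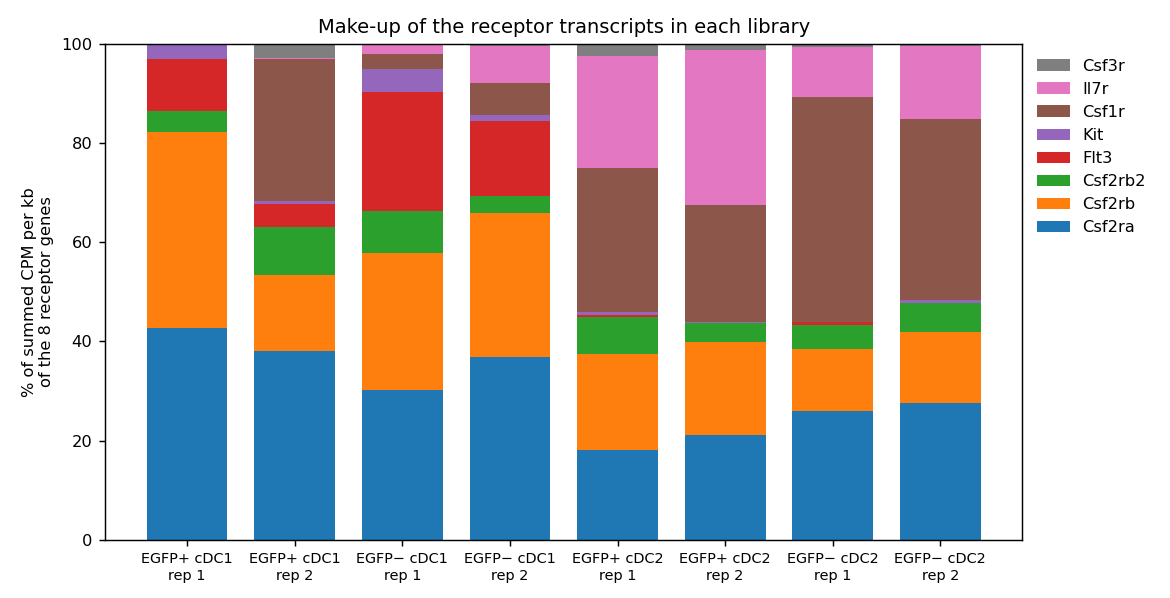
Share of each receptor gene in the summed TMM CPM per kb of the 8 genes (y axis, percent), 1 stacked bar a library (x axis). Csf2ra, Csf2rb and Csf2rb2 at the bottom together make up 63.1% to 86.4% in cDC1 and 43.2% to 47.8% in cDC2, where Csf1r and Il7r take most of the rest.

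Whether tumour antigen uptake, read as EGFP, went with a change in receptor transcripts was tested within each subset. By edgeR, 0 of the 8 receptor genes and 0 of 11394 genes (0%) passed an adjusted p of 0.05 in either subset, and the same held for the difference between the subsets' EGFP contrasts. At an unadjusted p under 0.05 there were 1452 genes in cDC1, 300 in cDC2 and 1180 for the difference, and DESeq2 called 1325, 110 and 714. Voom with library quality weights called 0, 2 and 0. Without EGFP-positive cDC1 replicate 1 or replicate 2, edgeR called 763 or 1050 genes in cDC1 and 515 or 668 for the difference. All 8 receptor genes had passed the filter on low counts.

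Il7r had the smallest p of the 8 in cDC1. Its mean was 0.324 ± 0.335 CPM in EGFP-positive and 37.8 ± 35.3 CPM in EGFP-negative cDC1 (SD, n = 2 each), a log2 fold change of −6.92 ± 1.12 (standard error) with both EGFP-positive libraries below both EGFP-negative ones. The edgeR adjusted p was 0.113, from an unadjusted p of 0.000346, so the change did not pass over all genes. Over 15 alternatives its log2 fold change lay between −8.65 and −5.35 and its adjusted p between 2.74e-09 and 0.596. It passed by DESeq2 (adjusted p = 2.74e-09) and by edgeR without EGFP-positive cDC1 replicate 1 (adjusted p = 0.0282) or replicate 2 (adjusted p = 0.0131), fits in which the lone library is assumed to vary like the other groups.

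In cDC2 the Il7r mean was 217 ± 2.07 CPM in EGFP-positive and 136 ± 40.7 CPM in EGFP-negative cells (SD, n = 2 each), a log2 fold change of 0.68 ± 0.84 (edgeR adjusted p = 1). The difference between the contrasts, cDC1 minus cDC2, was −7.60 ± 1.36 on the log2 scale and did not pass (edgeR adjusted p = 0.230, with a range of 5.52e-06 to 0.986 over 14 alternatives). It passed by DESeq2 (adjusted p = 5.52e-06) and without EGFP-positive cDC1 replicate 1 (adjusted p = 0.0354) or replicate 2 (adjusted p = 0.0170).

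Flt3 averaged 67.5 ± 0.464 CPM in EGFP-positive and 189 ± 26.5 CPM in EGFP-negative cDC1 (SD, n = 2 each). Its libraries did not overlap, yet its log2 fold change of −1.49 ± 2.06 did not pass (edgeR adjusted p = 0.828). Over 15 alternatives the fold change lay between −1.62 and −1.33, with the adjusted p from 0.541 to 1. Flt3 and Il7r were the 2 of 8 receptor genes with no overlap between the fractions in cDC1, against 35.5% of all genes tested, a share that is not above the background. Of the 8 cDC1 markers, 7 had a negative fold change, 1 a positive one and 0 passed the test. Their sum was 2426 and 1952 CPM in EGFP-positive and 4925 and 4366 CPM in EGFP-negative cDC1, mostly from Naaa, a lysosomal hydrolase gene, at 1543 and 1165 CPM in EGFP-positive and 3774 and 3071 CPM in EGFP-negative cDC1. Itgae, an integrin gene, went the other way, at 290.2 and 221 CPM in EGFP-positive and 141 and 178 CPM in EGFP-negative cDC1. Their part in the Flt3 level was not tested.

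Csf1r gave opposite answers in the 2 EGFP-positive cDC1 libraries. Its log2 fold change in cDC1 was 2.10 ± 1.75 with both (edgeR adjusted p = 0.628). It was 3.10 ± 0.57 with replicate 2 alone (adjusted p = 0.0196) and −5.20 with replicate 1 alone (adjusted p = 0.0103). The difference from cDC2 turned in the same way, at 3.11 ± 2.43 with both libraries (edgeR adjusted p = 0.711), 4.12 with replicate 2 alone (adjusted p = 0.0253) and −4.18 with replicate 1 alone (adjusted p = 0.0368). No direction for Csf1r in EGFP-positive cDC1 can be given from these libraries.

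In cDC2, the libraries of the EGFP fractions did not overlap for Csf1r, Csf2ra, Csf3r and Il7r, 4 of 8 genes, against 41.7% of all genes tested. Csf1r averaged 274 ± 98.5 CPM in EGFP-positive and 555 ± 68.7 CPM in EGFP-negative cDC2 (SD, n = 2 each), a log2 fold change of −1.02 ± 1.70 (edgeR adjusted p = 1). Csf2ra averaged 98.5 ± 11.1 CPM in EGFP-positive and 181 ± 13.1 CPM in EGFP-negative cDC2, a log2 fold change of −0.88 ± 0.43, with the smallest unadjusted edgeR p of the 8 in cDC2 at 0.0776. The standard errors of Csf2ra, Csf2rb, Csf2rb2 and Il7r in cDC2 were 0.32 to 0.84 on the log2 scale, and those of Csf1r, Csf3r, Flt3 and Kit were 1.57 to 2.65. Changes of a few-fold in the last 4 genes were thus not detectable with 2 libraries a group.

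**Figure D5:**
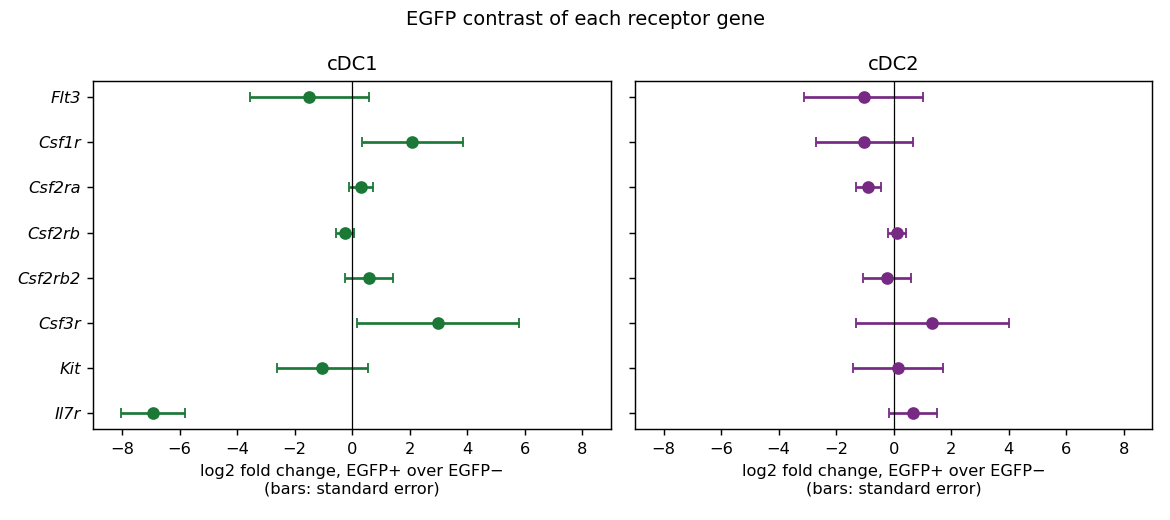
Log2 fold change of each receptor gene, EGFP-positive over EGFP-negative (x axis), in cDC1 (left) and cDC2 (right) from edgeR, with bars for the standard error (n = 2 libraries a group). Il7r in cDC1 lies at −6.92 ± 1.12 and has the smallest p of the 16 values, and none passed an adjusted p of 0.05.

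The genes around the receptors were read from 5 lists chosen with earlier results of these data known. Between cDC1 and cDC2, 2 of their 60 tested genes (3.33%) passed by edgeR, 1 in each direction, with 31 of the 60 fold changes positive. Of all 11394 genes 1.32% passed, 0.816% higher and 0.5% lower in cDC1. The growth factor ligands were low in most libraries. Csf2, Il3 and Il5, which encode GM-CSF, interleukin 3 and interleukin 5, had at most 0.0438 CPM in any library, and Il7 at most 0.841 CPM. Flt3l was at 0 to 14.4 CPM in cDC1 and 0.693 to 4.14 CPM in cDC2. Kitl and Csf3 had 0 counts in cDC1 and reached 7.48 and 22.3 CPM in cDC2. Of 10 ligand genes, 5 passed the filter on low counts and 0 the test. Csf1, a ligand of Csf1r, was at 14.2 and 21.5 CPM in EGFP-positive cDC1 and at 0 CPM in both EGFP-negative cDC1 libraries, against 0.364 and 10.9 CPM in EGFP-positive cDC2 and 0.0539 and 2.27 CPM in EGFP-negative cDC2. Il34, its other ligand, was at 60.3 CPM in EGFP-positive cDC1 replicate 1 and at 5.25 CPM or less elsewhere. That library also held the most RNA of the tumour and stroma markers, which summed to 808 and 22.5 CPM in EGFP-positive cDC1 and to 10.1 and 30.7 CPM in EGFP-negative cDC1, against 19.4 and 181 CPM in EGFP-positive cDC2 and 22.8 and 18.3 CPM in EGFP-negative cDC2. Sparc and Col3a1, matrix genes of stromal cells, were at 674 and 90.8 CPM there and at 126 and 24.1 CPM in EGFP-positive cDC2 replicate 2, the library with 5.25 CPM of Il34. The part of stromal RNA in the Il34 level was not tested.

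Of 16 partner and related receptor chains, 10 were tested and 0 passed (median log2 fold change 0.15, against −0.28 over all genes). Il2rg, the common gamma chain that completes the interleukin 7 receptor, was at 4.11 and 204 CPM in EGFP-positive cDC1 and at 70.4 and 26.7 CPM in EGFP-negative cDC1, against 177 and 65.4 CPM in EGFP-positive cDC2 and 196 and 195 CPM in EGFP-negative cDC2 (edgeR adjusted p = 0.757). Crlf2, the chain that pairs with Il7r in the thymic stromal lymphopoietin receptor, was steady at 37.4 to 64.6 CPM in cDC1 and 27.6 to 43.9 CPM in cDC2 (edgeR log2 fold change 0.47 ± 0.37, adjusted p = 0.697). Both libraries nearly without Il7r held Crlf2, at 49.1 and 64.6 CPM. Il15ra, a chain that binds interleukin 15, had the smallest p of these chains, at 16.9 to 40.4 CPM in cDC1 and 5.20 to 9.27 CPM in cDC2 (edgeR log2 fold change 1.95 ± 0.67, adjusted p = 0.247).

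Of 22 signalling genes all were tested and 0 passed (median 0.28). The kinase gene Jak1, which the interleukin 7 receptor uses, was at 87.1 to 113 CPM in cDC1 and 117 to 136 CPM in cDC2, and Jak2, which the GM-CSF receptor uses, at 24.3 to 98.7 CPM in cDC1 and 15.3 to 37.2 CPM in cDC2. Tyk2, a related kinase gene, was at 10.6 to 97.1 CPM in cDC1 and 5.25 to 31.6 CPM in cDC2. Tyrobp, an adaptor that works with Csf1r signalling in macrophages, was at 272 to 1153 CPM in cDC1 and 966 to 1689 CPM in cDC2 (edgeR log2 fold change −1.02 ± 0.41, adjusted p = 0.322). Of 15 negative regulators tested 0 passed (median −0.026). Socs3, a feedback inhibitor of cytokine receptors, had the smallest p of them, at 42.4 to 74.5 CPM in cDC1 and 69.2 to 254 CPM in cDC2 (edgeR log2 fold change −1.37 ± 0.36, adjusted p = 0.125). Ptpn1, a phosphatase gene, was at 138 to 247 CPM in cDC1 and 45.8 to 117 CPM in cDC2 (edgeR log2 fold change 1.05 ± 0.35, adjusted p = 0.244).

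Of 8 transcription factor genes tested, 1 was higher and 1 lower in cDC1. Irf8, which cDC1 development needs, was at 418 to 1485 CPM in cDC1 and 98.7 to 304 CPM in cDC2 (edgeR log2 fold change 2.33 ± 0.42, adjusted p = 0.0346). Cebpb, a factor of monocytes and macrophages, was at 6.17 to 46.5 CPM in cDC1 and 121 to 220 CPM in cDC2 (−3.19 ± 0.62, edgeR adjusted p = 0.0422). Both calls were lost in edgeR with the replicate number as a block (adjusted p = 0.0770 for Irf8 and 0.0852 for Cebpb). Leaving out either EGFP-negative cDC1 library, either EGFP-negative cDC2 library or EGFP-positive cDC2 replicate 2 also lost both, with adjusted p up to 0.121 for Irf8 and 0.145 for Cebpb, and leaving out EGFP-positive cDC2 replicate 1 lost Cebpb. Cebpa, its relative, was at 0 to 5.28 CPM in cDC1 and 14.8 to 76.4 CPM in cDC2 (edgeR adjusted p = 0.320).

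Among the marker lists, 9 genes passed by edgeR between the subsets, where 1.32% of all genes did. Adam19 and Dpp4, 2 of 6 tested conventional dendritic cell markers, and Batf3, Naaa, Tlr3 and Wdfy4, 4 of 8 cDC1 markers, were higher in cDC1. Klf4, 1 of 7 tested cDC2 markers, and Pf4 and C1qa, 2 of 10 macrophage markers, were lower. Pf4 and C1qa kept the call in all 14 alternatives. The call was lost in 8 of them for Adam19, 6 for Batf3 and Tlr3, 5 for Dpp4, 4 for Klf4 and Naaa and 1 for Wdfy4. These lists describe the sorted cells and were chosen with these libraries in view.

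Genes with the nearest pattern to each receptor were ranked by the root mean square difference of log2(CPM + 1), after centring each gene, over the 8 libraries and 5933 candidate genes (5934 for Csf3r) with a mean of at least 10 CPM. For Flt3 the nearest were Xcr1 (0.78), Dpp4 (0.85) and Laptm4b (1.02), where the median candidate lay at 3.07. For Csf1r they were Clec4e (0.42), Pygl (0.46) and Ltb4r1 (0.47), with the median at 2.66. For Il7r they were Hgsnat (0.72), Snx18 (0.99) and Fndc3b (1.02), with the median at 2.95. For Kit they were Cyfip2 (0.66), Tlr11 (0.78) and Camk1d (0.79), and for Csf3r Rbsn (0.36), Aebp2 (0.46) and Ptprj (0.54). The nearest to the others were Gusb for Csf2ra (0.19), Trappc4 for Csf2rb (0.16) and Zfp830 for Csf2rb2 (0.29). With a pseudocount of 0.1 in place of 1, all 3 neighbours were kept for Flt3, Csf2ra, Csf2rb and Csf2rb2, 1 for Il7r, Kit and Csf3r, and 0 for Csf1r.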

How the data were processed

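RNA of sorted tumour dendritic cells was measured in 8 libraries, with groups taken from the sample titles. RNA extraction and reverse transcription followed an earlier protocol and libraries were made with a KAPA kit, per the labels' protocols. Trimmomatic 0.39, STAR 2.7.5c, Cufflinks 2.2.1 and the mm10 build are named in the submitters' processing notes; which counter, annotation and strand setting were used is not stated there. The authors deposited raw read counts, whole numbers for 24369 symbols, in 8 columns, each matched to a sample by the code in its title.

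The main test was edgeR 4.0.16 (R 4.3.3), quasi-likelihood with robust dispersions and TMM scaling, on the 11394 genes that filterByExpr kept. Adjusted p-values are Benjamini-Hochberg over all of these, with a threshold of 0.05. The EGFP contrasts and their difference come from a model of the 4 group means in all 8 libraries, and the subset comparison from additive subset and EGFP terms. A standard error is the fold change divided by the root of F. The common dispersion of 1.28 is a biological coefficient of variation of 1.13, so only large changes were detectable. A floor of 3 counts was 0.131 to 0.211 CPM. Exon lengths are of merged GENCODE M21 exons. Alternatives were DESeq2 1.42.0, RLE scaling, no filter, voom with quality weights (limma 3.58.1), the compared libraries alone, a replicate block, removal of Rn45s and leaving out each library. The steps were run on simulated data, where a pass was required only at a dispersion below that of these libraries. Recovery at the dispersion of these libraries is not shown by that. The receptor genes and lists were chosen with earlier results of these data known. Named were the 8 genes, listed genes past the threshold or of smallest p with at least 5 CPM, and the 3 nearest patterns. Some genes the rule gives were left undescribed, and genes set beside a receptor as single markers were chosen after their values were seen.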

Additional observations from a re-analysis of the deposited data

How the results depend on the processing

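The number of genes called depended on the tool more than on the scaling. DESeq2 called 1325, 110, 714 and 1160 genes for EGFP in cDC1, EGFP in cDC2, their difference and the subset comparison, where edgeR called 0, 0, 0 and 150. Without the low-count filter edgeR called 57 in cDC1, 29 for the difference and 236 between subsets; voom with library quality weights called 2 in cDC2 and 846 between subsets. Leaving out each library in turn gave 0 to 1050 genes in cDC1, 0 in cDC2, 0 to 668 for the difference and 50 to 277 between subsets, with all nonzero counts of the EGFP contrasts from leaving out an EGFP-positive cDC1 library. With RLE scaling or without Rn45s these counts stayed within 1.5 times.

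The titles give every replicate 1 library a common code and every replicate 2 library another, and the labels do not say whether these mark an animal or a batch, so the numbers were not treated as pairs. Deviations of same-numbered libraries from their group means correlated at −0.22 to 0.041 between groups. The replicate block called 82 genes between subsets and 0 in the EGFP contrasts. It turned Kit in cDC2 to −0.41.

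Of 24 tested receptor results, 9 kept their direction under every alternative run and 15 reversed under at least 1, none of them past the threshold as reported. Voom reversed Csf1r in cDC1 (−2.39) and its difference (−1.33), Csf3r in cDC1 (−0.25) and its difference (−1.41), Csf2rb2 in cDC1 (−0.18) and Flt3 in cDC2 (0.28). Leaving out 1 library gave these ranges (log2) for the 15. In cDC1 they were −5.20 to 3.10 for Csf1r, −0.32 to 0.74 for Csf2ra, −0.45 to 0.011 for Csf2rb, −1.10 to 1.34 for Csf2rb2 and −8.07 to 7.91 for Csf3r. In cDC2 they were −6.69 to 8.72 for Flt3, −0.26 to 0.33 for Csf2rb, −1.22 to 0.31 for Csf2rb2 and −1.95 to 4.52 for Kit. For the difference they were −10.21 to 5.27 for Flt3, −4.18 to 4.12 for Csf1r, −0.57 to 0.093 for Csf2rb, −0.86 to 1.81 for Csf2rb2, −9.42 to 6.57 for Csf3r and −5.56 to 0.999 for Kit. The cause was not tested. Of 11 listed genes called between subsets, Pf4 and C1qa kept the call under all alternatives and 9 lost it under at least 1. Each contrast rests on 2 libraries a group.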
